A study of Mus musculus with 24 samples.

Results

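The nuclear genes of the mitochondrial respiratory chain and ATP synthase were followed through the first 48 h of adipogenic induction in 3T3-L1 cells, a mouse pre-adipocyte line. Members were taken by symbol: every listed locus with a gene symbol beginning with Nduf, Uqcr, Cox4 to Cox8 or Atp5, together with Sdha, Sdhb, Sdhc, Sdhd, Cyc1 and Cycs. This gave 69 genes of 9262 loci, namely 29 of complex I, 4 of complex II, 8 of complex III, cytochrome c, 13 of complex IV and 14 of ATP synthase. Ndufa4, named as a complex I gene, is a subunit of complex IV and was counted there. Cells were transfected with a control siRNA (siCon) or with an siRNA against 14-3-3ζ (si14-3-3ζ). From 24 h after transfection they were induced with 172 nM insulin, 500 μM IBMX (a phosphodiesterase inhibitor) and 500 nM dexamethasone (a glucocorticoid), and RNA was sequenced at 0, 24 and 48 h of induction. Each of the 6 groups held 4 libraries from this single cell line. The labels number them as replicates but do not state whether they came from separate cultures, and the study's methods speak of independent experiments in general without naming the sequencing. The p-values therefore reflect only how far these libraries differ among themselves, which may in part be technical variation.

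Complexes I to IV pass electrons from NADH and succinate to oxygen, complexes I, III and IV pump protons across the inner mitochondrial membrane, and ATP synthase (complex V) uses the proton gradient to make ATP. Ubiquinone carries electrons to complex III and cytochrome c carries them on to complex IV. The subunits come from nuclear and mitochondrial DNA, and mitochondrial content is known to grow when pre-adipocytes become adipocytes. The 13 subunits encoded by mitochondrial DNA are not analysed here, nor are 26 other subunit or assembly symbols of these families, among them Ndufs1, Uqcrb and Cox4i1. For 5 members the locus also carried other symbols: Ndufb2 with Adck2, Ndufb8 with Gm20538 and Sec31b, Cox8a with Naa40 and Otub1, Cox6b1 with Upk1a, and Atp5o with Donson, so that their values cannot be given to the subunit alone.

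Values were the deposited FPKM (fragments scaled by transcript length and by the total mapped), and differences are on the log2(FPKM + 1) scale, which understates the change of low genes. The listed FPKM summed to 474548 to 642146 per library, depth was otherwise unknown, and 15 to 78 loci per library were at 0. Every listed locus varied by at least 1.18-fold between its highest and lowest group mean, and the shares of called loci given below refer to the loci in this table, whose selection rule the sources do not state. Ywhaz, which encodes 14-3-3ζ, was at 154 to 271 FPKM in siCon libraries and at 21.9 to 55.5 FPKM in si14-3-3ζ libraries, with no overlap.

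The summed FPKM of the 69 members overlapped between the siRNAs before induction and was apart at 48 h. In siCon cells the sum was 12380 ± 151 at 0 h, 13410 ± 551 at 24 h and 15760 ± 1040 at 48 h (mean ± SD, n = 4). In si14-3-3ζ cells it was 13120 ± 553, 13110 ± 696 and 12070 ± 938 FPKM at the same times. At 48 h the siCon libraries ranged from 14370 to 16880 FPKM and the si14-3-3ζ libraries from 10890 to 12830 FPKM, so the groups did not overlap. This separation depended on the scaling. As a percentage of all listed FPKM in the same library, the members made up 2.24 to 2.92% and 2.19 to 2.35% at 48 h, with overlap. At 0 h they made up 2.05 to 2.38% in siCon and 2.44 to 2.60% in si14-3-3ζ libraries, without overlap. The heat map of single libraries shows the same block of higher values in all 4 siCon libraries at 48 h.

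**Figure D1:**
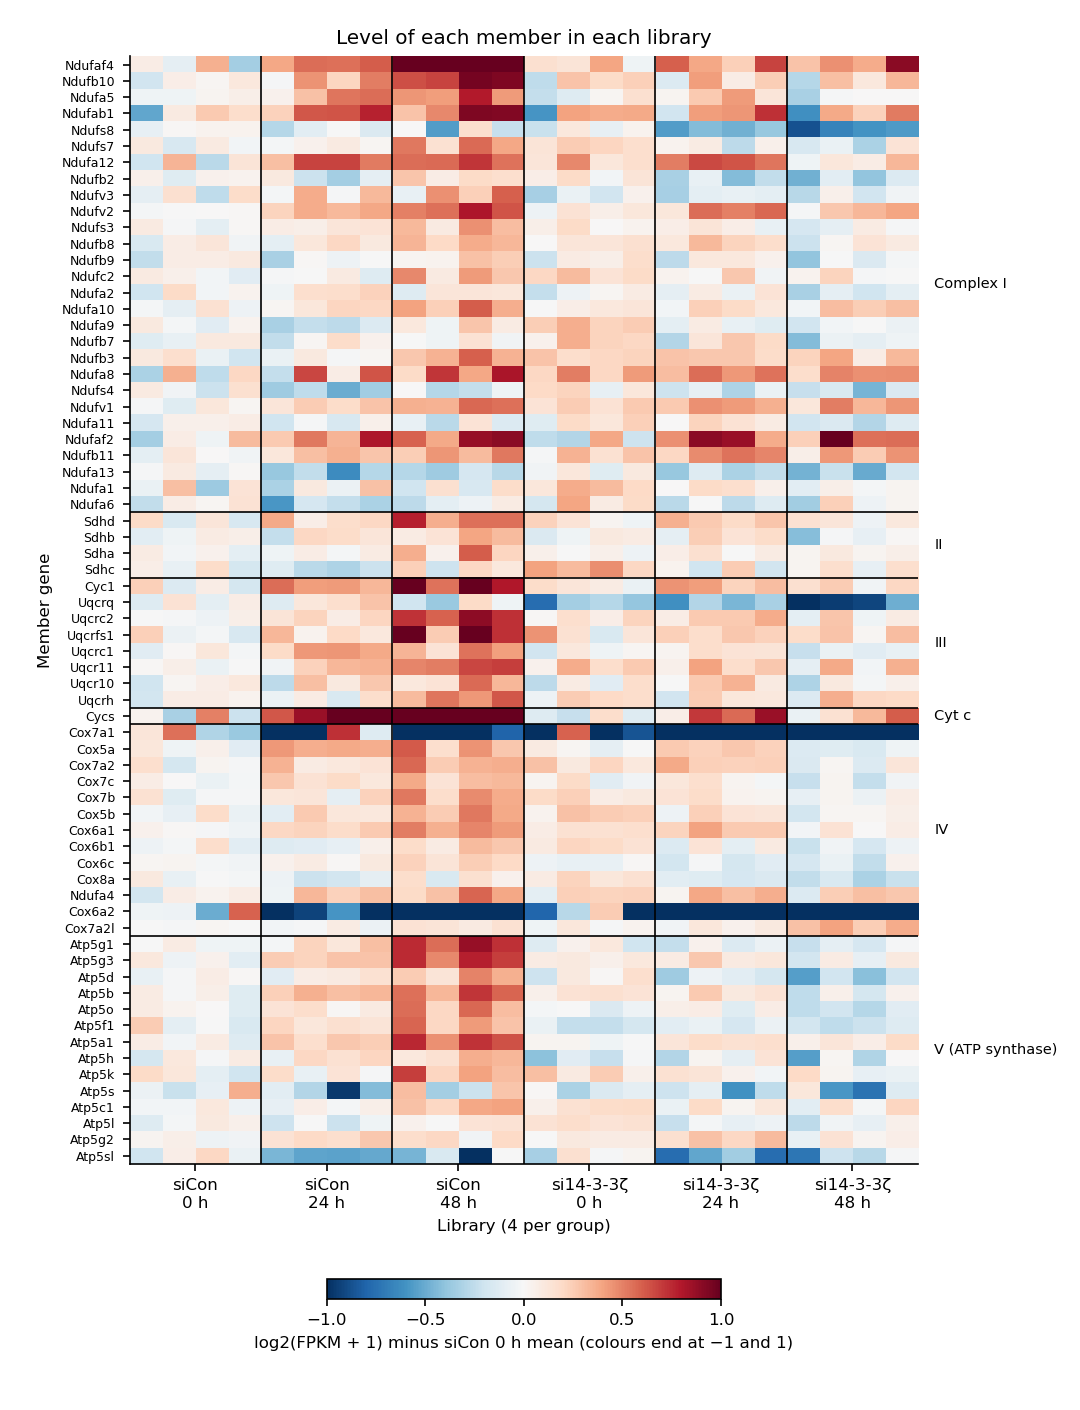
Each row is a member (1 is not shown) and each column a library, grouped by siRNA and hours, and the colour is log2(FPKM + 1) minus the mean of the 4 siCon libraries at 0 h. The siCon 48 h columns carry most of the red, while Cox6a2 and Cox7a1 are blue at 48 h with either siRNA.

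At 48 h, 47 of the 69 members were lower and 1 was higher in si14-3-3ζ than in siCon cells (limma, Benjamini-Hochberg adjusted p under 0.05), against 22.8% lower and 23.3% higher among the 9251 tested loci. The median member difference was -0.36, beside 0.01 over all tested loci. In 39 members every si14-3-3ζ library lay below every siCon library, against 18.1% of tested loci, and in 1 every library lay above, against 18.6%. By complex, the lower members were 16 of 29 in complex I, 3 of 4 in complex II, 8 of 8 in complex III, cytochrome c, 9 of 13 in complex IV and 10 of 14 in ATP synthase. The 48 h differences were modest except for cytochrome c, with medians of -0.25 in complex I, -0.31 in complex II, -0.54 in complex III, -0.40 in complex IV and -0.49 in ATP synthase. Quantile normalization left 31 members lower and 1 higher, with a median of -0.17.

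**Figure D2:**
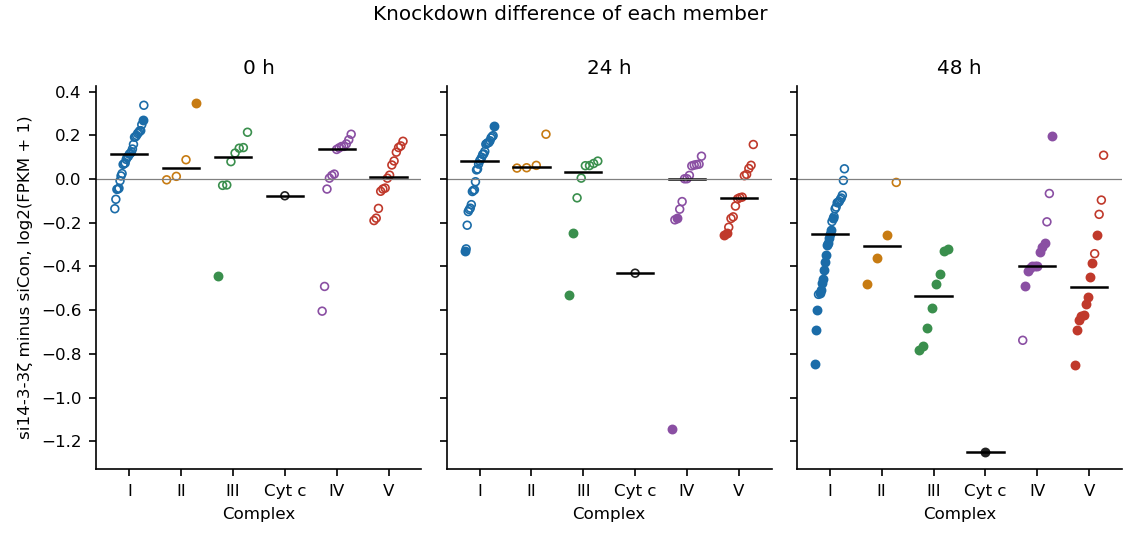
Points are members, placed by complex, and the y axis is the si14-3-3ζ minus siCon difference in log2(FPKM + 1) at 0, 24 and 48 h. Filled points had an adjusted p under 0.05 and bars are medians per complex; at 48 h only Cox7a2l is filled above zero.

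During induction of siCon cells the members rose. Between 0 and 48 h, 46 of 69 were higher and 4 lower, against 33.9% higher and 35.7% lower among all tested loci, with a median of 0.32. Every 48 h library lay above every 0 h library for 42 members and below for 3, against 28.1% and 29.9% of tested loci. Most of this came on the second day. From 0 to 24 h, 17 members were higher and 6 lower (30.8% and 33.4% of tested loci), and from 24 to 48 h 36 were higher and 0 lower (13.3% and 17.4% of tested loci, with 1 member lower at an unadjusted p under 0.05). Leaving out siCon 48 h replicate 3 reduced the 36 to 23. With the replicate number as a block, 27 were higher and 8 lower at 24 against 0 h.

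In si14-3-3ζ cells fewer members were called as rising than as falling. Between 0 and 48 h, 2 members were higher, Cox7a2l and Ndufaf2, and 19 were lower (26.5% and 29.7% of tested loci), with a median of -0.10. Quantile normalization changed this split to 11 higher and 12 lower. In the first day 9 were higher and 11 lower (28.3% and 31.9% of tested loci), which quantile normalization turned into 15 and 9. In the second day 1 was higher and 9 were lower (9.18% and 12.8% of tested loci), or 19 lower with the replicate number as a block. Without si14-3-3ζ 24 h replicate 2 the 10 calls became 5, and without si14-3-3ζ 24 h replicate 4, 48 h replicate 1 or 48 h replicate 3 they became 6.

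The difference between the responses was tested directly, as the 48 h response in si14-3-3ζ cells minus that in siCon cells. It was below zero for 40 members and above zero for 0 (9.24% and 8.69% of tested loci). For the members above zero, 1 had an unadjusted p under 0.05. The median was -0.42. By complex it was called in 13 members of complex I, 1 of complex II, 6 of complex III, cytochrome c, 9 of complex IV and 10 of ATP synthase. For the first day alone, 0 members were called (1.43% of tested loci, and 1 member at an unadjusted p under 0.05 in limma). For the second day alone 21 were lower and 0 higher (4.23% and 4.49% of tested loci), and none was higher at an unadjusted p under 0.05. This count fell to 9 without siCon 48 h replicate 3 and to 11 without either si14-3-3ζ 24 h replicate 2 or 48 h replicate 1, and became 44 with the replicate block. The comparisons of siCon cells at 48 h with 0 h and of the siRNAs at 48 h use the same siCon 48 h libraries, so that they are not independent of each other.

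**Figure D3:**
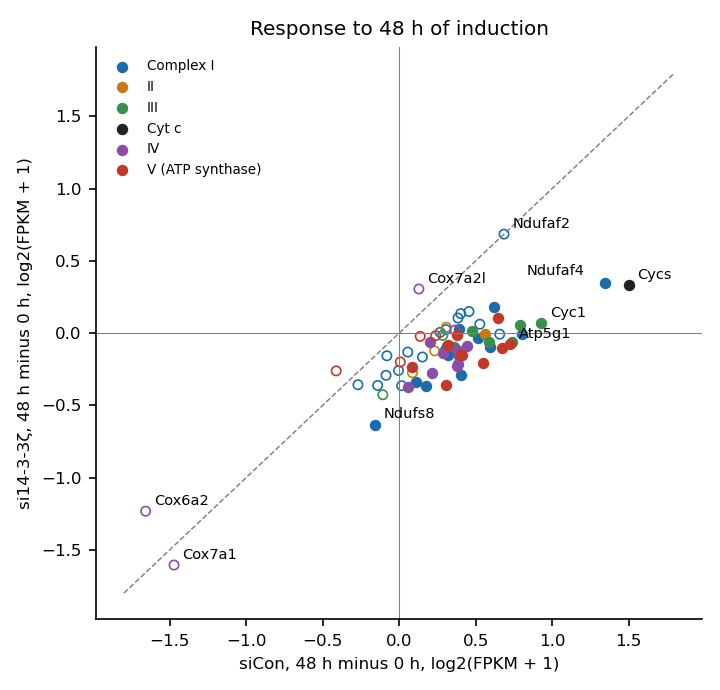
Each point is a member, with its 48 h minus 0 h difference in log2(FPKM + 1) in siCon cells on the x axis and in si14-3-3ζ cells on the y axis. The dashed line marks equal responses and filled points are the 40 members whose responses differed; most lie right of zero and near or below zero on the y axis.

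Cytochrome c had the largest fall of the members with knockdown at 48 h and the largest rise in siCon cells. Cycs (chr6:50512562-50516537, minus strand, NCBIM37) encodes the somatic form of this small haem protein, which moves electrons from complex III to complex IV. It was at 66.8, 51.9, 93.0 and 56.2 FPKM in the siCon libraries at 0 h, at 101, 120, 172 and 138 FPKM at 24 h, and at 174, 143, 249 and 196 FPKM at 48 h. In si14-3-3ζ libraries it was at 59.7, 55.6, 73.8 and 59.6 FPKM at 0 h, at 68.3, 107, 97.3 and 120 FPKM at 24 h, and at 62.4, 72.6, 81.8 and 99.8 FPKM at 48 h. At 48 h every siCon library was above every si14-3-3ζ library, whereas at 0 h the groups overlapped. The 48 h knockdown difference was -1.25 ± 0.20 (SE, adjusted p = 3.6e-05, limma), and the siCon rise to 48 h was 2.84-fold in mean FPKM (adjusted p = 8.1e-07). The difference between the 48 h responses was -1.17 (adjusted p = 0.0070). Cycs and several small subunits have processed pseudogenes, and the sources used here do not state how reads shared with such copies were divided.

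The Cycs promoter is shown because Cycs fell most with knockdown and because motifs of factors known to drive respiratory genes lie in it. The window is RefSeq's, 250 bases before to 50 after the start, at chr6:50566520-50566819 on the minus strand of GRCm38.p6. Capitals mark the cyclic AMP response element TGACGTCA, 169 to 162 bases before the start, and the NRF-1 core GCATGCGC, 60 to 53 bases before it.
Cycs: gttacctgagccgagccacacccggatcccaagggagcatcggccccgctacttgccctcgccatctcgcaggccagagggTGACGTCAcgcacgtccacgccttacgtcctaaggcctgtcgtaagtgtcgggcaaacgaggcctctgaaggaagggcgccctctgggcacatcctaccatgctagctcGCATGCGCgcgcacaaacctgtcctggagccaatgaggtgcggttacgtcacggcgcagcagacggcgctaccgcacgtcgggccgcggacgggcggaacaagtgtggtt

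In complex I, which oxidises NADH, 16 of 29 members were lower at 48 h with knockdown and 18 rose over 48 h in siCon cells. Ndufv1, which binds the FMN cofactor and receives the electrons of NADH, rose in siCon cells from 87.6 ± 5.73 to 120.7 ± 10.4 FPKM (SD, n = 4). Its 48 h level with knockdown was 112 ± 13.3 FPKM, a difference of -0.11 ± 0.08 (SE, adjusted p = 0.29) with overlapping libraries. Ndufs8, an iron-sulphur core subunit, was not called over 48 h in siCon cells (-0.16, adjusted p = 0.22). At 48 h it was at 89.1, 59.8, 99.6 and 75.5 FPKM in siCon and at 48.1, 55.3, 58.3 and 59.7 FPKM in si14-3-3ζ libraries. These ranges nearly met, and the knockdown difference was -0.52 (adjusted p = 7.5e-04). In si14-3-3ζ cells Ndufs8 fell by 0.63 over 48 h (adjusted p = 5.8e-05). Some further core subunits, which carry the catalytic machinery, were chosen after their values were seen. Ndufv2, which holds an iron-sulphur cluster beside the FMN site, was at 76.96 ± 0.65 FPKM at 0 h and 119 ± 11.6 FPKM at 48 h in siCon cells, and at 91.9 ± 11.0 FPKM at 48 h in si14-3-3ζ cells (SD, n = 4). Ndufs7, which carries the last iron-sulphur cluster before ubiquinone, was at 108 ± 13.6 FPKM in siCon and 75.7 ± 10.1 FPKM in si14-3-3ζ cells at 48 h (-0.51, adjusted p = 2.4e-04). Ndufs3 was at 114 ± 11.8 against 89.3 ± 6.72 FPKM at 48 h (-0.35, adjusted p = 7.3e-04). All 3 were without overlap between the siRNAs at 48 h, but the ranges of Ndufs7 and Ndufs3 nearly met. The lowest siCon libraries were at 89.6 and 98.4 FPKM, and the highest si14-3-3ζ libraries at 88.8 and 97.5 FPKM.

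Complex I accessory and assembly genes were less uniform. Ndufaf4 (chr4:24825230-24832148, plus strand), an assembly factor that is not part of the finished complex, was at 6.59, 5.74, 8.19 and 4.70 FPKM in siCon libraries at 0 h and at 17.6, 14.7, 20.1 and 17.4 FPKM at 48 h. In si14-3-3ζ libraries at 48 h it was at 7.77, 8.85, 8.30 and 12.5 FPKM, all below the siCon libraries. The knockdown difference was -0.84 ± 0.15 (SE, adjusted p = 8.7e-05, limma) and the siCon rise 1.35 ± 0.15. Ndufaf2, the other assembly factor listed, was chosen after its values were seen: it rose by 0.69 in siCon and by 0.68 in si14-3-3ζ cells. Ndufa13, an accessory subunit also known as GRIM-19, fell in siCon cells from 110 ± 5.53 to 91.2 ± 5.04 FPKM and in si14-3-3ζ cells from 112 ± 8.73 to 87.0 ± 10.2 FPKM. Ndufb3 rose in siCon cells by 0.39 (adjusted p = 2.8e-04) and its 48 h knockdown difference was -0.14 (adjusted p = 0.19). Among accessory subunits chosen after their values were seen, Ndufb10 was at 229 ± 26.2 FPKM in siCon and 143 ± 26.2 FPKM in si14-3-3ζ cells at 48 h (-0.69, adjusted p = 6.7e-04), and Ndufa5 was at 196 ± 26.4 against 129 ± 13.5 FPKM (-0.60, adjusted p = 2.8e-04). Both groups of libraries were apart. Ndufa1 and Ndufa6 gave -0.01 and 0.05, with overlapping libraries. The loci of Ndufb2 and Ndufb8 were lower, with differences of -0.46 and -0.30.

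Ndufaf4 is shown with its promoter, chr4:24897833-24898132 on the plus strand of GRCm38.p6, because it ranked next to Cycs in the siCon rise. The first run of capitals holds the NRF-1 core on both strands, overlapping, 113 to 104 bases before the start, and the second holds it on the minus strand just after the start.
Ndufaf4: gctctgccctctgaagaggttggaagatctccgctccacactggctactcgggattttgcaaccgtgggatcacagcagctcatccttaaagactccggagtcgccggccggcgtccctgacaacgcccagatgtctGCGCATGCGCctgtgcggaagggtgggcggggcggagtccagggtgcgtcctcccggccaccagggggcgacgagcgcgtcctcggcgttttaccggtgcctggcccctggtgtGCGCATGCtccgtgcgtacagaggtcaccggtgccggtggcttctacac

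Complex II, the succinate dehydrogenase that also belongs to the tricarboxylic acid cycle, had 3 of 4 members lower at 48 h. Sdha, the flavoprotein subunit, was at 74.6 to 111 FPKM in siCon and at 73.9 to 77.7 FPKM in si14-3-3ζ libraries (-0.26, adjusted p = 0.016, limma), with overlap. This call was lost without siCon 48 h replicate 3 (-0.16, adjusted p = 0.091), after quantile normalization (-0.15, adjusted p = 0.15) and under 2 further alternatives. Sdhb, the iron-sulphur subunit, was at 76.0 to 95.0 FPKM against 53.4 to 72.3 FPKM, without overlap (-0.36, adjusted p = 0.0096). Sdhc, a membrane anchor, differed before induction instead. It was at 132, 119, 143 and 111 FPKM in siCon and at 166, 157, 174 and 145 FPKM in si14-3-3ζ libraries at 0 h (0.35, adjusted p = 0.029), a call lost without siCon 0 h replicate 2 or 4, without si14-3-3ζ 0 h replicate 1 or 3 (adjusted p from 0.067 to 0.098) and with replicates 2 to 4 only (adjusted p = 0.089). At 48 h the means were 134 and 132 FPKM. The groups did not overlap at 0 h and overlapped at 48 h. Sdhd, the other anchor, chosen after its values were seen, had the opposite order of times: at 48 h it was at 137 ± 16.6 FPKM in siCon and 97.9 ± 5.97 FPKM in si14-3-3ζ cells (-0.48, adjusted p = 3.1e-04), without overlap.

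Complex III, which passes electrons from ubiquinol to cytochrome c, had all of its 8 listed members lower with knockdown at 48 h. Cyc1 (chr15:76173953-76176364, plus strand), the cytochrome c1 subunit, was at 132, 101, 118 and 98.7 FPKM in siCon libraries at 0 h and at 259, 163, 254 and 195 FPKM at 48 h. In si14-3-3ζ libraries at 48 h it was at 125, 133, 109 and 129 FPKM. The groups did not overlap at 48 h, with a difference of -0.78 ± 0.12 (SE, adjusted p = 2.0e-05, limma). Uqcrfs1, the Rieske iron-sulphur protein, was at 122.7, 63.8, 108 and 89.5 FPKM in siCon and at 61.0, 65.3, 54.3 and 66.4 FPKM in si14-3-3ζ libraries at 48 h. The siCon replicate 2 library lay inside the range of the knockdown libraries, and the difference was -0.59 (adjusted p = 0.0022). Uqcrc1, a core protein without a redox centre, was at 115 to 152 FPKM against 88.5 to 99.6 FPKM at 48 h (-0.48, adjusted p = 8.3e-05) and was lower at 24 h (-0.25, adjusted p = 0.031). The 24 h call was lost after quantile normalization (-0.15, adjusted p = 0.09) and without any of siCon 24 h replicates 2, 3 and 4 or si14-3-3ζ 24 h replicates 1, 3 and 4 (adjusted p from 0.051 to 0.089). Uqcrc2, the other core protein, chosen after its values were seen, was at 66.4 ± 2.14 FPKM at 0 h and 111 ± 9.71 FPKM at 48 h in siCon cells, and at 69.3 ± 8.28 FPKM at 48 h in si14-3-3ζ cells (-0.68, adjusted p = 1.4e-06). The small subunits Uqcr10, Uqcr11 and Uqcrh had 48 h differences of -0.33, -0.43 and -0.32, and of these the libraries of Uqcrh overlapped. The calls of Uqcr10 and Uqcrh were lost after quantile normalization (-0.20 and -0.08).

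Uqcrq (chr11:53241424-53244333, minus strand), a small ubiquinone-binding subunit of complex III, was the only member called lower at all 3 times. At 0 h it was at 215, 260, 219 and 248 FPKM in siCon and at 138, 185, 192 and 179 FPKM in si14-3-3ζ libraries. At 48 h it was at 204, 181, 268 and 228 FPKM against 107, 121, 124 and 167 FPKM. The groups did not overlap at any time. The differences were -0.44, -0.53 and -0.76 at 0, 24 and 48 h (adjusted p = 0.027, 0.0054 and 1.0e-04, limma). The 0 h call was lost without siCon 0 h replicate 2 or 4 (adjusted p = 0.076 and 0.066), without si14-3-3ζ 0 h replicate 1 (-0.34, adjusted p = 0.1) and with replicates 2 to 4 only (adjusted p = 0.062). Uqcrq was not called over 48 h in siCon cells (-0.11, adjusted p = 0.49).

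In complex IV, the cytochrome c oxidase, limma called 9 of 13 members lower and 1 higher in the siRNA comparison at 48 h. Cox5a, a matrix-side subunit, was at 266, 194, 236 and 209 FPKM in siCon and at 157, 159, 156 and 168 FPKM in si14-3-3ζ libraries at 48 h, without overlap (-0.49, adjusted p = 2.5e-05, limma). Cox6a1, the liver-type isoform of subunit VIa, was at 737 to 821 FPKM against 565 to 636 FPKM (-0.40, adjusted p = 1.8e-05). Cox7a2, the liver-type isoform of subunit VIIa, was at 136 to 170 FPKM against 103 to 124 FPKM (-0.42, adjusted p = 4.4e-04). The loci holding Cox6b1 and Cox8a were also lower (-0.33 and -0.29). So were Cox5b, Cox6c, Cox7b and Cox7c, chosen after their values were seen, with differences of -0.40, -0.31, -0.40 and -0.40, all without overlap. After quantile normalization the calls of Cox6a1 (-0.09, adjusted p = 0.38), Cox6b1 (-0.13, adjusted p = 0.17), Cox8a (-0.10, adjusted p = 0.53), Cox5b (-0.16, adjusted p = 0.078), Cox6c (-0.08, adjusted p = 0.3) and Cox7c (-0.17, adjusted p = 0.12) were lost. Ndufa4 rose in siCon cells by 0.36 (adjusted p = 0.0079), and its 48 h knockdown difference was -0.20 ± 0.12 (SE, adjusted p = 0.17).

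Cox7a2l (chr17:83901259-83913673, minus strand), a relative of subunit VIIa that is known to join complexes III and IV into supercomplexes, was the 1 member higher with knockdown at 48 h. It was at 182, 179, 175 and 183 FPKM in siCon and at 201, 217, 195 and 213 FPKM in si14-3-3ζ libraries. The groups did not overlap, and the difference was 0.20 ± 0.06 (SE, adjusted p = 0.0059, limma), or adjusted p = 0.053 when only the compared groups were fitted. From 0 to 48 h it rose by 0.13 in siCon (adjusted p = 0.044) and by 0.30 in si14-3-3ζ cells (adjusted p = 8.0e-05), and these responses did not differ past the threshold (0.18, adjusted p = 0.12). The siCon call was lost under 13 alternatives, of which 10 left out a single library, with adjusted p up to 0.12. Its promoter, chr17:83514284-83514583 on the minus strand of GRCm38.p6, is printed as the counterpart of the falling genes, and none of the 3 motifs searched occurred in it.
Cox7a2l: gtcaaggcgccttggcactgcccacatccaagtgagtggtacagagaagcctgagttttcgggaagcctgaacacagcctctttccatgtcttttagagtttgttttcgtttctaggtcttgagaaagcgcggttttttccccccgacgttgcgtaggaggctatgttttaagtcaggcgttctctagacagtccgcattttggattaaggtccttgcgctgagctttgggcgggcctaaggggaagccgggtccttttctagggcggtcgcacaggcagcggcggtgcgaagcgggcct

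The muscle-type isoforms of complex IV went the other way with induction. Cox6a2, the heart and muscle form of subunit VIa, was listed at 3.59, 3.56, 2.36 and 6.12 FPKM in siCon libraries at 0 h and at 0.386, 0.401, 1.08 and 0.244 FPKM at 48 h (-1.66, adjusted p = 3.0e-05, limma). In si14-3-3ζ cells it fell by 1.23. Cox7a1, the muscle form of subunit VIIa, was listed at 4.48, 6.39, 3.09 and 2.89 FPKM at 0 h and at 0.859, 1.02, 0 and 1.89 FPKM at 48 h in siCon libraries (-1.47, adjusted p = 0.0042). In si14-3-3ζ libraries it was at 1.31, 6.60, 1.49 and 1.77 FPKM at 0 h and at 0.407, 0, 0 and 0 FPKM at 48 h. These are low values beside the liver-type isoforms in the same libraries. Cox6a2 was 0.676% of the summed FPKM of Cox6a1 and Cox6a2 in siCon cells at 0 h and 0.0668% at 48 h, and Cox7a1 was 3.61% and 0.630% of its pair. Neither share overlapped between these times. Des, the 1 listed muscle marker, also fell, from 4.49 ± 1.73 to 2.37 ± 0.90 FPKM in siCon cells (SD, n = 4; -0.69, adjusted p = 0.016) and from 3.34 ± 0.73 to 1.61 ± 0.75 FPKM in si14-3-3ζ cells (-0.76, adjusted p = 0.012). Its part in the fall of these isoforms was not tested.

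**Figure D4:**
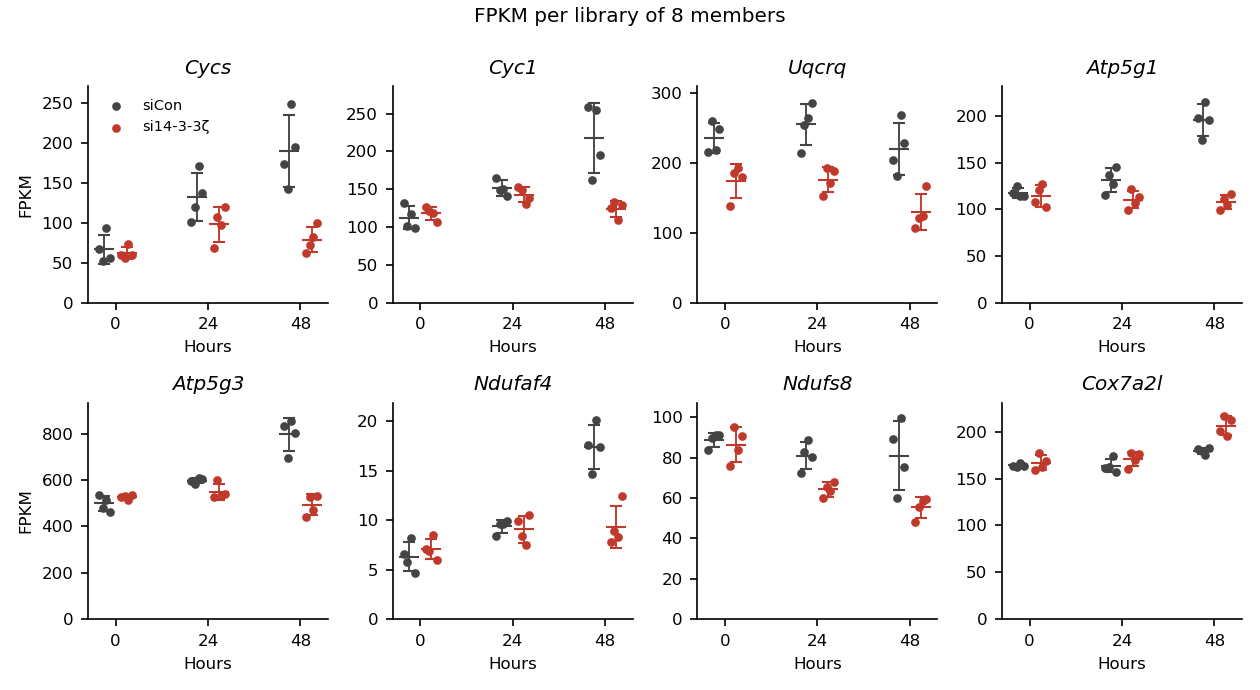
FPKM of 8 members in each library against hours of induction, with mean and SD (n = 4) for siCon in grey and si14-3-3ζ in red, all axes from 0. The groups separate at 48 h for all 8, upwards only for Cox7a2l.

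In ATP synthase, 10 of 14 members were lower with knockdown at 48 h. All 4 listed subunits of the catalytic F1 head were among them. Atp5b, the catalytic beta subunit, was at 818, 703, 921 and 839 FPKM in siCon and at 470, 579, 496 and 577 FPKM in si14-3-3ζ libraries at 48 h, without overlap (-0.63 ± 0.08, SE, adjusted p = 4.4e-06, limma). Atp5a1, the alpha subunit, was at 335 to 414 FPKM against 253 to 279 FPKM (-0.54, adjusted p = 1.6e-06). Atp5c1, the gamma subunit of the central stalk, was at 182 to 209 FPKM against 146 to 183 FPKM, with overlap (-0.26, adjusted p = 0.0085), a call lost after quantile normalization (-0.11, adjusted p = 0.15) and with the compared groups only (adjusted p = 0.057). Atp5d, the delta subunit, chosen after its values were seen, was at 214 ± 23.4 against 137 ± 16.6 FPKM (-0.64, adjusted p = 1.9e-05). In the peripheral stalk, Atp5f1 and Atp5h were lower (-0.57 and -0.45), as was the locus of Atp5o (-0.62). Atp5k, a membrane subunit, was lower (-0.38, or -0.16 and not called after quantile normalization), and Atp5l gave -0.16 (adjusted p = 0.079). Atp5s, a coupling factor rather than a ring or stalk subunit, and Atp5sl, its relative, were low (3.53 ± 1.24 and 7.80 ± 1.73 FPKM in si14-3-3ζ cells at 48 h) and had differences of -0.34 and 0.11 that did not pass the threshold.

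The 3 genes for the c-subunit, whose mature proteins are identical and form the rotor ring, were not called alike. Atp5g1 (chr11:95930166-95936984, minus strand) was at 117, 125, 114 and 114 FPKM in siCon libraries at 0 h and at 198, 174, 216 and 196 FPKM at 48 h. With knockdown it was at 99.8, 111, 105 and 117 FPKM at 48 h, below all siCon libraries (-0.85 ± 0.09, SE, adjusted p = 1.2e-07, limma). Atp5g3 was at 835, 695, 856 and 804 FPKM against 439, 528, 472 and 533 FPKM (-0.69, adjusted p = 3.9e-07). Atp5g2 was at 402, 411, 347 and 408 FPKM against 338, 392.5, 362 and 372 FPKM, with overlap (-0.10 ± 0.07, SE, adjusted p = 0.23). Atp5g1 and Atp5g3 also rose in siCon cells, by 0.73 and 0.67, and the rise of Atp5g2 did not pass the threshold (0.14, adjusted p = 0.066).

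As shares of the 3 genes' summed FPKM, which do not depend on scaling between libraries, Atp5g1, Atp5g2 and Atp5g3 made up 12.1%, 36.6% and 51.3% in siCon cells at 0 h. At 48 h these shares were 14.1%, 28.4% and 57.5% in siCon and 11.2%, 37.9% and 50.9% in si14-3-3ζ cells. None of the 3 shares overlapped between the siRNAs at 48 h. Each gave p = 0.0286 in a 2-sided exact permutation test, the smallest that 4 against 4 libraries allow, and 0.065 after adjustment over the 25 share comparisons, which missed the threshold. In limma on the log2 ratio of each isoform to the rest, the same 3 knockdown comparisons had adjusted p of 1.1e-04, 2.7e-06 and 1.1e-04.

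**Figure D5:**
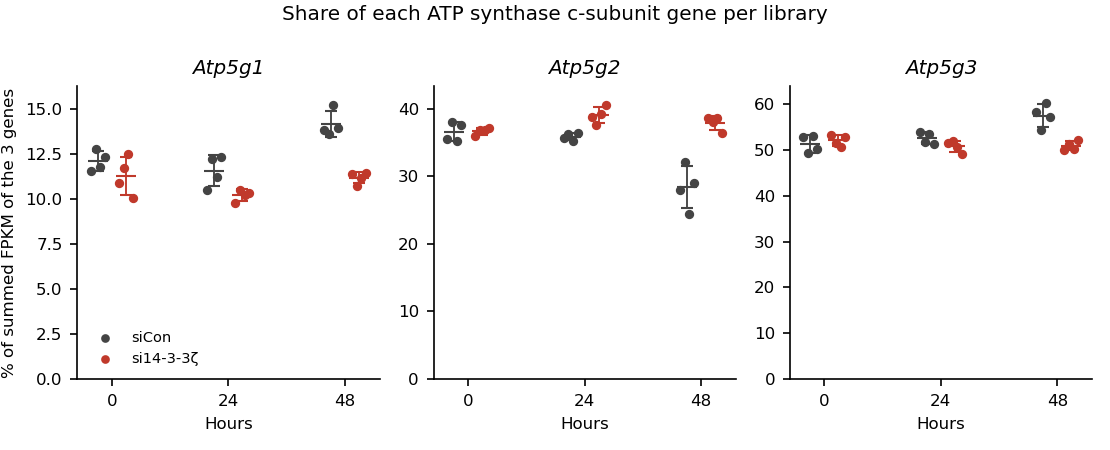
Each panel gives the percentage of one c-subunit gene in the summed FPKM of Atp5g1, Atp5g2 and Atp5g3 per library against hours, with mean and SD (n = 4). At 48 h the grey siCon points leave the red si14-3-3ζ points, downwards for Atp5g2 and upwards for the other genes.

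The Atp5g1 promoter, chr11:96075582-96075881 on the minus strand of GRCm38.p6, is shown because Atp5g1 had the smallest adjusted p of the members at 48 h. None of the 3 motifs occurred in it.
Atp5g1: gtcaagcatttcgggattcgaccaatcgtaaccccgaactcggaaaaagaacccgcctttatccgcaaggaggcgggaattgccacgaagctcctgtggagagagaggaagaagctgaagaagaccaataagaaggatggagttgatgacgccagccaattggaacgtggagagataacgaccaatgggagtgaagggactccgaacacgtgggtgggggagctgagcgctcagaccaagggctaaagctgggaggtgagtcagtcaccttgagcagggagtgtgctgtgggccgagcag
Over all members, 59 of 69 had a promoter window in RefSeq. Motifs were searched on both strands. A member was counted when any of its windows matched, and the 59 members had 63 windows. The background counts single windows, so the shares are not of quite the same unit. The NRF-1 core GCATGCGC was in 12 of the 59 (20.3%, against 2.71% of all 32851 windows), the ETS motif CCGGAAG in 13 (22.0%, against 8.86%) and the cyclic AMP response element TGACGTCA in 5 (8.47%, against 1.79%). The 12 with the NRF-1 core were Ndufa6, Ndufa8, Ndufa11, Ndufaf4, Sdhb, Uqcrc1, Uqcr11, Cycs, Cox6a1, Atp5g2, Atp5k and Atp5l. Of these, Ndufa6, Ndufa8, Ndufa11, Atp5g2 and Atp5l did not pass the threshold for the 48 h knockdown difference. The rest were called lower, as were 47 of all 69 members. The member windows had a median GC content of 58.3%, against 52.7% over all windows. A match is a description of letters, not of a bound site.

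Before induction few members were called in the reported fit, though small differences were often missed by this test in simulated data. At 0 h limma called 2 members higher and 1 lower in the siRNA comparison (8.10% and 9.16% of tested loci). The median was 0.09, beside 0.01 over all tested loci, with 49 member differences above zero and 20 below. The higher members were Sdhc and Ndufa9, an accessory subunit of complex I, at 95.7 to 111 FPKM in siCon and at 121 to 133 FPKM in si14-3-3ζ libraries (0.27, adjusted p = 0.013, limma). Ndufa9 was then lower at 48 h (-0.18, adjusted p = 0.049), with overlap, a call lost under 21 alternatives. At 24 h, 1 was higher, Ndufb3, and 7 were lower (14.5% and 14.0% of tested loci), namely Ndufs8, Uqcrc1, Uqcrq, Cox6c, Cox7a1, Atp5f1 and Atp5g1. The call of Cox7a1 (-1.15, adjusted p = 0.048) was lost under 21 alternatives, with -0.71 (adjusted p = 0.22) without siCon 24 h replicate 3. The 24 h calls of Ndufb3, Ndufs8 and Atp5g1 were lost under 7, 7 and 8 alternatives, with adjusted p up to 0.14, 0.099 and 0.11. As shares of the 69 members both counts lie below these backgrounds. Quantile normalization gave 17 higher and 1 lower at 0 h, and reversed the split at 24 h to 14 higher and 2 lower. The member medians were then 0.137 at 0 h and 0.127 at 24 h, beside 0.029 and 0.035 over all tested loci. The shares of tested loci above are from the reported fit, and none is given for the alternatives. The replicate block raised the 0 h count as well, as given in the section on processing. With the replicate number as a block, 4 were higher and 11 lower at 24 h. Leaving out single libraries there gave 1 to 9 called members: 5, 4, 3 and 3 without siCon 24 h replicates 1 to 4, and 2, 5 and 1 without si14-3-3ζ 24 h replicates 1 to 3. At 0 h the 3 called members became 1 without siCon replicate 4 or without si14-3-3ζ replicate 1.

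Markers of mature adipocytes were also lower with knockdown at 48 h. All 11 on a list of such genes were lower with knockdown at 48 h (22.8% of tested loci), with a median of -2.43. Their summed FPKM was 1620 to 5168 in siCon and 271 to 621 in si14-3-3ζ libraries at 48 h. In the siCon libraries at 48 h, replicates 1 to 4, it was 4037, 1620, 5168 and 2204, beside member sums of 15790, 14370, 16880 and 16020 FPKM. At 0 h the marker sum also differed, at 1625 to 1896 FPKM in siCon and at 665 to 774 FPKM in si14-3-3ζ libraries. At that time 3 members were called. Counted by gene, 1 of the 11 markers was called lower and 0 higher at 0 h (9.16% and 8.10% of tested loci), with a median of -0.14. From 0 to 24 h in siCon cells the marker sum fell to 476 to 876 FPKM. The member sum went from 12230 to 12520 up to 12660 to 13950 FPKM, so the sums moved in opposite directions. By gene, however, 4 markers were called higher and 2 lower over that day (30.8% and 33.4% of tested loci), with a median of -0.06. In si14-3-3ζ libraries the marker sum was 223 to 340 FPKM at 24 h. In the siCon libraries at 48 h the one with the lowest markers also had the lowest member sum, and the one with the highest markers had the highest. The part of the adipocyte markers in the members' difference was not tested. In bulk RNA, fewer cells of a type and less RNA per cell cannot be told apart. Of 6 listed fibroblast and pre-adipocyte markers 2 were called higher and 3 lower between the siRNAs at 48 h (23.3% and 22.8% of tested loci). Lyz2 was the 1 macrophage marker listed, at 5.3 to 9.3 FPKM in siCon and 7.1 to 12.4 FPKM in si14-3-3ζ libraries at 0 h. At 48 h it was at or below 1.47 FPKM in every library and was called higher with knockdown (0.64). None of the endothelial or epithelial markers was listed.

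Genes known to act on the respiratory chain were counted from lists outside the symbol rule. Among all tested loci, 22.8% were lower with knockdown at 48 h. In siCon cells, 33.9% rose and 35.7% fell from 0 to 48 h. Of 11 listed regulators of mitochondrial gene expression, 6 passed the test between the siRNAs at 48 h, each lower with knockdown (limma, median -0.40), and 9 passed in siCon cells, each rising. Ppargc1b, a coactivator of mitochondrial genes, was at 1.02 ± 0.29, 0.882 ± 0.32 and 4.06 ± 1.58 FPKM at 0, 24 and 48 h in siCon, and at 1.58 ± 0.14, 0.802 ± 0.27 and 1.07 ± 0.54 FPKM in si14-3-3ζ cells (SD, n = 4). Esrra, an orphan nuclear receptor that works with it, was at 32.5 ± 4.96 FPKM against 21.6 ± 4.24 FPKM at 48 h (-0.58, adjusted p = 9.7e-04). Nrf1, whose product binds the NRF-1 motif, was at 16.2 ± 1.51 against 15.6 ± 2.41 FPKM (-0.06, adjusted p = 0.78). Of 11 assembly factors for complexes III and IV, 4 were lower with knockdown at 48 h, with a median of -0.28 over the list, and 8 rose in siCon cells. Cox10, given next, and Ppargc1b, Esrra and Nrf1 were picked outside the rule that named the members and do not stand for their lists. Cox10, which makes the haem A precursor of complex IV, was at 17.7 ± 5.71 against 8.58 ± 0.76 FPKM at 48 h (-0.93, adjusted p = 1.1e-05). Of 9 assembly factors for complexes I, II and V, 4 were lower with knockdown, and 6 rose and 1 fell in siCon cells. Of the 3 other ATP synthase genes, 1 was lower and 2 rose, a list too short to set against those shares.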

How the data were processed

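RNA from 24 libraries of 3T3-L1 cells was sequenced as paired 150 bp reads. The authors aligned the reads with TopHat 2.0.11 to NCBIM37, quantified them with Cufflinks 2.2.0 and deposited FPKM per locus and library, without counts, so that depth and counting error per locus are unknown. Any scaling between libraries and the rule for listing loci are not given in the sources used here.

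Loci that reached 1 FPKM in 4 or more libraries (9251 of 9262) were tested with limma 3.58.1 in R 4.3.3 on log2(FPKM + 1), with 6 group means, no covariate, an intensity trend and Benjamini-Hochberg adjustment over all tested loci. The procedure was tested on simulated data for knockdown at 0 h, with 50 changed loci per size of change. It recovered 12 of 50 at 1.25-fold, 33 at 1.5-fold, 46 at 2-fold and 50 at 4-fold, with 6 false calls. Changes of 1.25-fold were thus mostly missed, and a member that was not called may still differ by such an amount. Isoform shares were compared by exact permutation. Gene positions are from GENCODE M1 (NCBIM37), and promoter windows are RefSeq's (GRCm38.p6).

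Named members were core subunits, isoform sets, the 2 largest called rises and falls without overlap per comparison, and up to 3 called members against the common sign. The values of 1 member are not reported here. The members and lists were chosen with earlier results of these data known. Alternatives were another pseudocount, filter, scaling, spread, a replicate block and leaving out single libraries. Shares of tested loci are those of the reported fit throughout. They are not given for the alternatives, so a changed member count there has no background beside it.

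Deviations of same-numbered libraries from their group means correlated above 0.1 in all 4 pairs for knockdown at 24 h (0.101 to 0.443). They did so for all 3 siCon comparisons and for si14-3-3ζ at 24 against 0 h and at 48 against 24 h. The best-correlated library had the same number for 2 of 4 libraries in knockdown at 24 h and in si14-3-3ζ at 24 against 0 h. In knockdown at 0 h and in siCon at 24 and 48 against 0 h it did for 4 of 4, and elsewhere for 3 of 4. Each count is above what unrelated numbers would give on average, so same-numbered libraries tended to vary together. The labels do not state what they share, so pairing by design is not settled. The reported calls come from the fit without the block. The block is given as an alternative, and several counts changed with it.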

Additional observations from a re-analysis of the deposited data

Results flagged for a closer look

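Of 30 named members, the 48 h response to induction differed between the siRNAs in 18, by a test of the difference itself (limma, adjusted p under 0.05). Among all tested loci, 9.24% were called below and 8.69% above zero. Some members were named because of this comparison or of others that use the siCon 48 h libraries. The count is therefore not independent of how the members were chosen. The si14-3-3ζ minus siCon differences on the log2(FPKM + 1) scale were -1.17 for Cycs and -1.003 for Ndufaf4. In complex III they were -0.86 for Cyc1, -0.73 for Uqcrfs1 and -0.45 for Uqcrc1. In ATP synthase they were -0.81 for Atp5g1, -0.77 for Atp5g3, -0.75 for Atp5b, -0.54 for Atp5a1 and -0.40 for Atp5c1. In complex IV they were -0.60 for Cox7a2, -0.53 for Cox6a1 and -0.49 for Cox5a. The loci of Cox6b1 and Cox8a gave -0.49 and -0.43. In complex I they were -0.48 for Ndufs8, -0.45 for Ndufa9 and -0.36 for Ndufb3. The call was lost for Ndufs8 under 12 alternatives, of which 10 left out a single library (adjusted p up to 0.14), and for Ndufb3 under 11, of which 8 did so (adjusted p up to 0.093). It was lost for Uqcrfs1 with replicates 2 to 4 only (adjusted p = 0.065) and for Cox8a after quantile normalization (adjusted p = 0.087).

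In 180 groups of 4 libraries, 8 held a library far from the other 3, by a test that flags about 1 in 20 groups by chance. The si14-3-3ζ replicate 1 library stood apart at 0 h for Atp5b (578 FPKM, others from 617 to 624) and Ndufa4 (538, others from 672 to 681), at 24 h for Cox7a2 (148, others from 134 to 135), and at 48 h for Ndufa4 (524, others from 684 to 709) and Cox7a1 (0.407, others at 0). Cox7a1 was at 6.60 FPKM in si14-3-3ζ 0 h replicate 2 (others from 1.31 to 1.77). Atp5g2 was at 347 FPKM in siCon 48 h replicate 3 (others from 402 to 411). Atp5g3 was at 600 FPKM in si14-3-3ζ 24 h replicate 2 (others from 528 to 539).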

How the results depend on the processing

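The counts of members called for knockdown at 48 h, for siCon at 48 against 0 h and for the difference of the 48 h responses kept their main direction and stayed within 1.5 times of the reported value under every alternative run. Leaving out single libraries gave 42 to 48, 46 to 52 and 33 to 42 members. With libraries of replicates 2 to 4 only, added after seeing the data, these were 46, 52 and 37, and at single-symbol loci only the first 2 were 43 and 47. The smaller counts moved. For knockdown at 0 h (3 members) the count was 18 after quantile normalization and 1 to 4 without single libraries. For knockdown at 24 h (8) it was 16 after quantile normalization, 5 from the compared groups only, 3 from replicates 2 to 4 and 1 to 9 without single libraries. For siCon at 48 against 24 h (36) it was 19 from the compared groups only and 23 to 39 without single libraries. For si14-3-3ζ at 48 against 24 h (10) it was 6 after quantile normalization and 5 to 12 without single libraries. For the difference of second-day responses (21) it was 11 from the compared groups only, 10 from replicates 2 to 4 and 9 to 31 without single libraries. The cause was not tested. No other alternative, a test without the intensity trend included, moved a count by over 1.5 times.

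With the replicate number as a block, the count was 16 for knockdown at 0 h, 15 for knockdown at 24 h, 35 for siCon at 24 against 0 h, 20 for si14-3-3ζ at 48 against 24 h and 44 for the difference of second-day responses. It was 53 for knockdown at 48 h, 55 for siCon at 48 against 0 h and 55 for the difference of the 48 h responses, and no other count moved by over 1.5 times. For knockdown at 0 and 48 h and for si14-3-3ζ at 48 against 0 h the same-numbered libraries were not all correlated above 0.1 (lowest 0.0839, 0.0804 and 0.0439). The best-correlated library still had the same number for 4, 3 and 3 of 4 libraries there.

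Of 72 calls of named genes, 2373 alternative values gave 2239 in the same direction and past the threshold, 134 in the same direction and not past it, and 0 reversed. The isoform shares missed the threshold in exact tests and passed it in limma on the log2 ratio. These ratios differed at 48 h with knockdown by -0.381 for Atp5g1, 0.627 for Atp5g2 and -0.381 for Atp5g3, and in siCon at 48 against 0 h by 0.252, -0.546 and 0.360 for the same genes, -2.10 for Cox6a2 and -1.86 for Cox7a1. Without single libraries these share differences ranged in percentage points from -3.14 to -2.60, 8.19 to 10.7 and -7.61 to -5.59 with knockdown, and from 1.66 to 2.24, -9.43 to -6.88, 5.22 to 7.23, -0.698 to -0.473 and -3.35 to -2.19 in siCon cells. The Cox6a2 share difference with knockdown, 0.0126 points, ranged from -0.00411 to 0.0390. Log2 shares could not be computed where a library was at 0.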

Other observations

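Genes that feed the respiratory chain were counted as well. Among all tested loci, 22.8% were lower with knockdown at 48 h, and 33.9% rose and 35.7% fell in siCon cells over 48 h. Of 10 listed genes of ubiquinone synthesis, 6 passed the test between the siRNAs at 48 h, each lower with knockdown (limma, median -0.36), and 6 passed in siCon cells, each rising. Pdss1, which makes the side chain of ubiquinone, was at 3.33 ± 0.50, 8.10 ± 0.87 and 10.5 ± 3.13 FPKM at 0, 24 and 48 h in siCon and at 2.52 ± 0.38, 6.04 ± 0.89 and 4.16 ± 0.85 FPKM in si14-3-3ζ cells (SD, n = 4). Coq7, a hydroxylase of the pathway, was lower with knockdown at 48 h without a rise in siCon cells: it was at 17.8 ± 4.16 FPKM at 0 h and 13.4 ± 2.11 FPKM at 48 h in siCon, and at 5.18 ± 1.41 FPKM at 48 h in si14-3-3ζ cells (knockdown difference -1.24, adjusted p = 7.7e-06).

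Of 9 other genes of electron entry and uncoupling, 4 passed between the siRNAs at 48 h, each lower with knockdown (22.8% of tested loci). Before induction, at 0 h, 5 of the 9 were higher with knockdown and 0 lower (8.10% and 9.16% of tested loci), with a median of 0.27. In siCon cells 7 rose and 2 fell over 48 h (33.9% and 35.7% of tested loci). Ucp2, an inner-membrane carrier of the uncoupling protein family, was at 129 ± 15.6, 333 ± 12.6 and 304 ± 14.6 FPKM in siCon and at 155 ± 6.19, 209 ± 19.8 and 154 ± 17.2 FPKM in si14-3-3ζ cells at 0, 24 and 48 h (48 h knockdown difference -0.98, adjusted p = 1.8e-08, limma). Gpd2 and Sqrdl, which pass electrons to ubiquinone, fell in siCon cells by 0.91 and 1.48. Of 5 adenine nucleotide, phosphate and porin carriers, 3 were lower at 48 h with knockdown (22.8% of tested loci). In siCon cells 3 rose and 1 fell (33.9% and 35.7% of tested loci). Slc25a5, an adenine nucleotide carrier, was at 551 ± 110 FPKM in siCon and at 346 ± 17.6 FPKM in si14-3-3ζ cells at 48 h (-0.65, adjusted p = 5.4e-04). These genes were chosen after their values were seen.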
